A study of Mus musculus with 28 samples.

Results

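Mouse progenitor cells that lack topoisomerase IIβ (gene Top2b) were compared with the neurons that the same knockout cells formed at the stage labelled TN day 2. The comparison used the 2 arrays of knockout neuronal progenitors (NP) and the 2 arrays of knockout TN day 2 cells, 4 of the 28 arrays of the series, and covered all 19938 genes that a probe set could be assigned to. The cells were of strain 129SvEv, and every group described here came from differentiation of stem cells in culture by published protocols. The knockout groups are labelled Top2β knockout and the reference groups wild type, with 2 arrays for wild-type progenitors and 2 for wild-type TN day 2 cells. The labels attach a single text on DMSO and the topoisomerase inhibitor ICRF-193 to every sample, with dosing that starts at TN day 2. No NP or TN day 2 sample is labelled as having received either agent. They do not spell out TN, how the Top2b allele was made, how many knockout clones were used, or whether the arrays of a group were separate cultures. The p-values below therefore measure the spread between arrays, which may be technical.

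In this type of protocol, embryonic stem cells form aggregates, are exposed to retinoic acid and become progenitors that resemble Pax6-positive radial glia. Once plated, these cells leave the cell cycle within days, lose progenitor regulators and switch on genes for the neuronal cytoskeleton, ion channels, adhesion molecules and synapses. Topoisomerase IIβ passes one DNA duplex through a cut in another and so relieves supercoils and tangles that transcription produces. It is the form of the enzyme that predominates in cells that no longer divide, whereas topoisomerase IIα serves dividing cells. Loss of the β form is known for impaired expression of some long neuronal genes and for defects of axons and late neuronal differentiation.

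All values are log2 expression values as the authors deposited them, and changes are TN day 2 minus NP, so that a change of 1 is a 2-fold difference. Errors are standard errors from limma over the 28 arrays with 2 arrays a group. A gene is said to have risen or fallen only when its adjusted p was under 0.05 over all genes (Benjamini-Hochberg). The medians of the 8 arrays used lay between 6.22 and 6.35. Arrays of a group correlated across probe sets with r between 0.992 (wild-type TN day 2) and 0.997 (knockout progenitors). Between the 2 knockout TN day 2 arrays, the median of array 2 minus array 1 was 0.45 over 23 mesenchymal genes, 0.42 over 28 BMP and TGFβ genes, 0.29 over 36 Wnt genes and -0.26 over 32 pan-neuronal genes. The wild-type TN day 2 arrays differed by 1.31 in the mesenchymal genes, -0.64 in 25 radial glia genes and -0.41 in 46 mitosis genes. These differences move with several results below, and their part in those results was not tested.

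Between the progenitor stage and TN day 2, 8848 of 19938 genes (44.4%) changed in knockout cells. Of these, 3909 rose (19.6% of all genes) and 4939 fell (24.8%). By at least 2-fold, 1271 rose (6.37%) and 1573 fell (7.89%). The median change of all genes was -0.07, and the middle 80% of genes lay between -0.87 and 0.76. When every array was centred on its median, the median change moved up by 0.10, and 4604 genes rose and 4046 fell. The balance of rises and falls over all genes thus turned with the scaling, and the gene groups below are read against the median gene. The arrays hold RNA of whole cultures, so fewer cells of a type and less RNA per cell cannot be told apart in any of these changes.

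The Top2b probe set was low but not flat in the knockout cells. It read 6.89 and 6.77 in knockout progenitors and 8.99 and 8.94 at TN day 2, against 9.17 and 9.10 and then 11.40 and 11.35 in wild-type cells. All 4 knockout arrays lay below the wild-type arrays of their stage. Both genotypes showed a rise, of 2.14 ± 0.24 in the knockout (adjusted p = 1.64e-07) and 2.24 in the wild type, and the difference between the rises was -0.10 ± 0.34 (adjusted p = 0.956). It is not known here which part of the gene was removed or whether this probe set reads that part. The lower level checks the labels and says nothing of the protein. Top2a, which encodes the α form, read 10.31 and 10.37 and then 10.68 and 10.54 in knockout cells, a change of 0.27 ± 0.21 that did not pass (adjusted p = 0.337). Top1, the topoisomerase that nicks a single strand, went from 9.38 and 9.52 to 10.40 and 10.38, up by 0.94 ± 0.09 (adjusted p = 3.19e-08). Tdp1, which removes trapped topoisomerase I from DNA, fell by 0.97 ± 0.12, from 9.37 and 9.45 to 8.39 and 8.48. Of the 8 topoisomerase genes measured, 2 rose and 2 fell. The second fall, in Top1mt, the topoisomerase of mitochondria (-0.43 ± 0.13), lost its call without knockout progenitor array 1 or TN day 2 knockout array 2 (adjusted p up to 0.0957), and with median centring or quantile normalization.

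**Figure D1:**
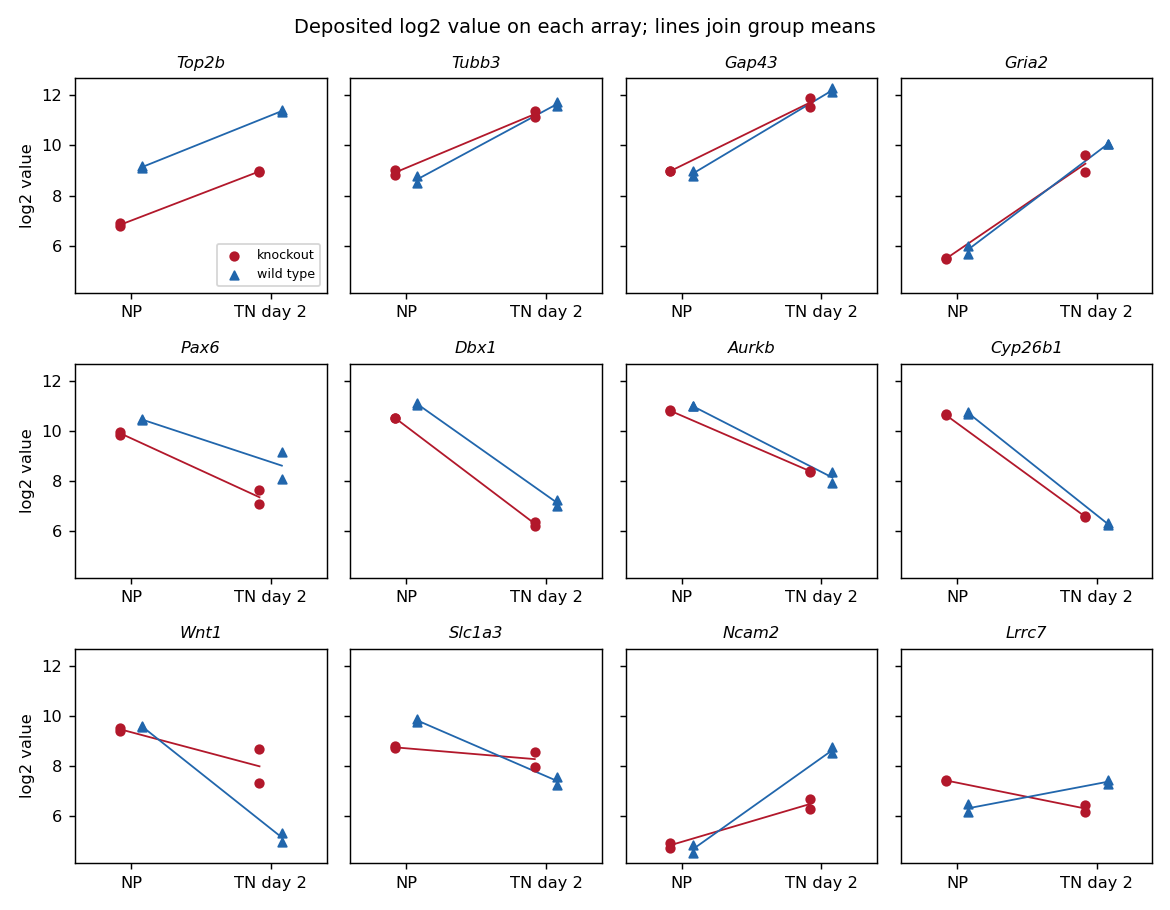
Log2 expression (vertical axes) of 12 genes on each array of progenitors (NP) and TN day 2 (TNd2) cells, wild type and knockout, with 2 arrays (points) a group and lines that join the group means. Tubb3, Gap43 and Gria2 rose and Pax6, Dbx1, Aurkb and Cyp26b1 fell in both genotypes, whereas Ncam2 reached 6.66 and 6.29 in the knockout against 8.50 and 8.76 in the wild type.

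The largest rises joined neuronal genes with genes of connective tissue. Dcn, a proteoglycan of the matrix around fibroblasts, went from 6.22 and 6.10 to 10.91 and 11.37, up by 4.98 ± 0.53 (adjusted p = 7.9e-08). Col3a1, a fibrillar collagen, read 7.63 and 7.57 and then 11.00 and 11.30, and Ogn, another matrix proteoglycan, rose by 3.86 ± 0.59. Among neuronal genes, Gria2, an AMPA-type glutamate receptor subunit, rose from 5.45 and 5.49 to 9.61 and 8.93, by 3.80 ± 0.20 (adjusted p = 3.37e-12). Chl1, an adhesion molecule of the L1 family, rose by 3.84 ± 0.18, and Scn3a, a voltage-gated sodium channel, by 3.69 ± 0.27. The vesicle GTPase Rab3c rose by 3.62 ± 0.15 and the glycine receptor subunit Glra2 by 3.43 ± 0.21. Mab21l2 (4.17), Micos10 (3.87), Mybpc1 (3.75), Il33 (3.71), Lamp5 (3.66), Ano3 (3.63) and Id4 (3.62) completed the 15 largest rises. The 15 were chosen among genes whose arrays did not overlap between the stages, as was so for 73.5% of all genes.

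The largest falls included regulators of progenitor identity, enzymes of retinoic acid metabolism and blood vessel genes. Ak4, an adenylate kinase of mitochondria, dropped from 10.78 and 10.80 to 5.70 and 6.18, a change of -4.85 ± 0.19 (adjusted p = 4.81e-14). Dbx1, a homeobox regulator of ventral progenitors, went from 10.50 and 10.51 to 6.36 and 6.20 (-4.22 ± 0.19), and Olig3, a regulator of dorsal progenitors, from 8.65 and 8.54 to 4.24 and 4.72 (-4.12 ± 0.22). Foxf1, a forkhead factor of mesoderm, fell by 4.64 ± 0.45, and the endothelial genes Emcn and Cdh5 by 4.57 ± 0.41 and 3.66 ± 0.46. The enzymes that break down retinoic acid, Cyp26b1 and Cyp26a1, changed by -4.07 ± 0.17 and -3.77 ± 0.62. Terc, the RNA template of telomerase, read 9.61 and 9.70 in progenitors and 5.14 and 5.48 at TN day 2, a change of -4.35 ± 0.27. Mt2 (-4.04), Hoxd3os1 (-3.88), Gstm1 (-3.78), Uqcc2 (-3.67), Rras (-3.48) and Cldn6 (-3.48) completed the 15 largest falls, chosen in the same way.

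Pan-neuronal genes rose together in the knockout cells: 28 of 32 rose and none fell, with a median change of 1.34 beside -0.07 over all genes. Tubb3, the neuronal β-tubulin, went from 9.04 and 8.80 to 11.37 and 11.14, up by 2.33 ± 0.13 (adjusted p = 6.55e-12). Gap43, a protein of growth cones, rose from 8.98 on both arrays to 11.90 and 11.53, by 2.74 ± 0.12. The microtubule regulators Dcx and Stmn2 rose by 2.09 ± 0.12 and 2.10 ± 0.17, the RNA-binding protein gene Elavl2 by 2.52 ± 0.16, Uchl1 by 2.26 ± 0.14, Map2 by 1.18 ± 0.13 and Elavl3 by 1.04 ± 0.18. For each of these 8 genes both TN day 2 arrays lay above both progenitor arrays. The named markers of neurons were thus all higher in the samples labelled as neurons. In wild-type cells 32 of 32 rose, with a median of 1.68.

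**Figure D2:**
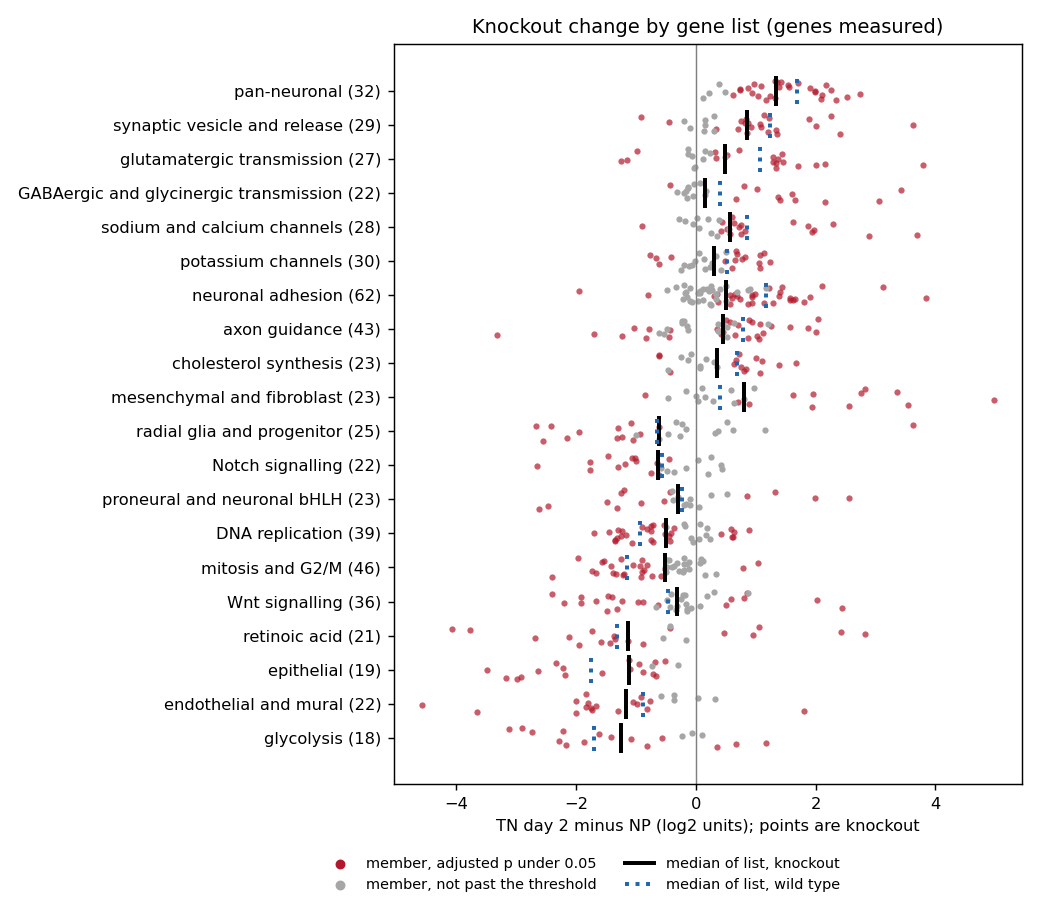
Change from NP to TN day 2 (horizontal axis, log2) of the members of 20 gene lists in knockout cells (dots), with the knockout median (black line) and the wild-type median (blue dotted line). Pan-neuronal genes have a knockout median of 1.34, mesenchymal genes 0.80, mitosis genes -0.52, epithelial genes -1.12 and glycolysis genes -1.25.

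Genes of the synaptic vesicle and its release rose in 20 of 29 cases and fell in 2, with a median of 0.86. Syt4, a vesicle synaptotagmin, went from 7.23 and 7.11 to 9.65 and 9.51 (2.41 ± 0.14), and Cadps, which primes dense-core vesicles, from 7.43 and 7.62 to 9.98 and 9.56 (2.25 ± 0.15). Snap91, a clathrin adaptor of the synapse, rose by 2.00 ± 0.11, and Syt1, the calcium sensor of fast release, by 1.35 ± 0.15. Doc2b, a calcium-binding protein of spontaneous release, moved the other way, from 7.16 and 7.07 to 6.18 and 6.20, a change of -0.92 ± 0.10. The second fall was Unc13c (-0.46 ± 0.13), which lost its call without TN day 2 knockout array 1 (adjusted p = 0.0686) and turned its sign when its probe sets were averaged (0.20).

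Receptors and enzymes of fast transmission divided by gene. In the glutamatergic list 15 of 27 genes rose and 3 fell. Beside Gria2, the AMPA receptor genes Gria4, Gria3 and Gria1 rose by 2.15 ± 0.15, 2.01 ± 0.32 and 1.70 ± 0.21. Slc17a6, the vesicular glutamate transporter 2, read 4.58 and 4.56 in progenitors and 6.57 and 5.26 at TN day 2, a rise of 1.34 ± 0.28 (adjusted p = 0.000365). Slc17a7, transporter 1, read 5.80 and 5.59 and then 5.64 and 5.66 and did not pass. The kainate receptor genes Grik4 and Grik5 fell by 1.25 ± 0.12 and 1.15 ± 0.14, and Camk2a, a kinase of mature synapses, by 0.99 ± 0.14.

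In the GABA and glycine list, 10 of 22 genes rose and 1 fell, or 2 fell without TN day 2 knockout array 1. Gad2, which makes GABA, rose from 5.80 and 5.87 to 9.10 and 8.69, by 3.06 ± 0.13 (adjusted p = 1.89e-13), and Gad1, which does the same, from 6.99 and 7.04 to 9.22 and 9.12 (2.16 ± 0.18). Slc32a1, which loads GABA and glycine into vesicles, rose from 6.45 and 6.30 to 7.78 on both arrays (1.41 ± 0.14). Slc6a5, the neuronal glycine transporter, rose by 1.65 ± 0.18. Of these 4 genes, all with both TN day 2 arrays above the progenitors, none differed between genotypes in its change, with adjusted p between 0.361 and 0.947. No gene of the list of cholinergic and monoaminergic neurons rose, and 7 of 18 fell. The nicotinic receptor genes Chrnb4 and Chrna3 went from 9.95 and 9.96 to 6.45 and 6.79, and from 9.88 and 9.98 to 7.84 and 7.98.

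Voltage-gated sodium and calcium channel genes rose in 17 of 28 cases and fell in 1. Without TN day 2 knockout array 1, 11 rose. Scn2a, the sodium channel of axons, went from 5.72 and 5.93 to 8.95 and 8.47 (2.89 ± 0.16), Cacna2d3, an accessory calcium channel subunit, from 5.91 and 5.96 to 8.52 and 7.91 (2.28 ± 0.14), and the N-type channel gene Cacna1b rose by 1.97 ± 0.14. Cacna1h, a low-threshold calcium channel, fell by 0.91 ± 0.13. Of 30 potassium channel genes, 12 rose and 4 fell, or 2 fell without TN day 2 knockout array 1. The filter on dim genes, which keeps genes above 6.70 on at least 2 of the 8 arrays, left 11 of the 30, of which 5 rose and 3 fell. Kcnh8 rose by 1.24 ± 0.15 and Kcnk10 by 1.13 ± 0.11, while Kcnh1 fell by 0.61 ± 0.14.

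Neuronal adhesion genes rose in 29 of 62 cases and fell in 2, with a median of 0.51, and axon guidance genes rose in 19 of 43 and fell in 8. Without TN day 2 knockout array 1, 12 guidance genes rose and 5 fell. Pcdh9, a protocadherin, went from 6.76 and 6.39 to 9.75 and 9.67 (3.13 ± 0.22), and L1cam, the founding member of the L1 family, from 7.20 and 7.28 to 9.33 and 8.94 (1.90 ± 0.16). Ctnna2, the neuronal α-catenin, rose by 2.10 ± 0.15, and Sdk2, an adhesion molecule of synaptic layers, fell by 1.96 ± 0.21. In guidance, Ptpro, a receptor phosphatase, rose by 2.04 ± 0.11 and the ephrin receptor gene Epha5 by 2.00 ± 0.21. The netrin receptor gene Unc5a dropped from 11.06 and 10.96 to 7.78 and 7.59, by 3.33 ± 0.11 (adjusted p = 9.89e-15), and Unc5b and Ntn1, its relative and its ligand, fell by 1.71 ± 0.25 and 1.24 ± 0.27.

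Most progenitor regulators that changed fell over the same step. In the radial glia list 12 of 25 genes fell and 1 rose (2 without TN day 2 knockout array 1), with a median of -0.61. Pax6, the homeobox gene that marks these progenitors, went from 9.84 and 9.96 to 7.62 and 7.06, a change of -2.56 ± 0.29 (adjusted p = 1.88e-07). Lhx2, a homeobox gene of early forebrain and eye, dropped from 8.71 on both arrays to 6.06 and 6.03 (-2.67 ± 0.21), Msi1, an RNA-binding protein of neural stem cells, by 2.42 ± 0.19, and Sox9 by 2.16 ± 0.43. Nes, the intermediate filament nestin, and Hes5 fell by 1.24 ± 0.32 and 1.30 ± 0.25. Fabp7, a lipid-binding protein of radial glia, read 11.26 on both progenitor arrays and 10.76 and 9.77 at TN day 2, and did not pass (adjusted p = 0.136). Slc1a3, the glial glutamate transporter, read 8.70 and 8.77 and then 7.96 and 8.57 and did not pass either. Of the 5 genes taken to mark the labelled progenitors, 3 (Pax6, Nes and Hes5) fell.

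Notch signalling holds progenitors back from differentiation through Hes and Hey repressors, and proneural factors oppose it. No Notch gene rose and 13 of 22 fell, with a median of -0.63. Hey1, a target of the pathway, went from 10.15 and 10.11 to 7.42 and 7.52 (-2.66 ± 0.28), the ligand gene Dll4 fell by 1.78 ± 0.16, and Lfng, which glycosylates the receptor, by 1.76 ± 0.25. The target Hes1 read 8.86 and 8.98 and then 8.50 and 9.01, with overlapping arrays and a change of -0.17 ± 0.28 (adjusted p = 0.682). Proneural and early neuronal factors split, with 4 of 23 higher and 9 lower. The transient factors Neurog1, Neurod1 and Neurog2 fell, with changes of -2.63 ± 0.23, -2.47 ± 0.42 and -1.31 ± 0.14. Myt1, a zinc finger factor of differentiating neurons, rose from 7.60 and 7.73 to 10.43 and 10.02 (2.56 ± 0.14), and Myt1l and Nhlh2 rose by 1.98 ± 0.19 and 1.31 ± 0.22.

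Cell division genes fell more often than they rose, whether they act in mitosis or in DNA replication. In the list of mitosis and G2/M genes, 22 of 46 fell and 2 rose, with a median of -0.52. Aurkb, a kinase of the chromosomal passenger complex, went from 10.81 and 10.77 to 8.36 and 8.40, a change of -2.41 ± 0.15 (adjusted p = 3.35e-11). Foxm1, a transcription factor of G2/M genes, fell by 1.97 ± 0.18, Plk1, a mitotic kinase, by 1.74 ± 0.17, and Ccnb2, a mitotic cyclin, from 11.00 and 10.99 to 9.24 and 9.39 (-1.68 ± 0.18). The 2 that rose were Nuf2, of the kinetochore, by 1.03 ± 0.18 and the kinesin gene Kif20b by 0.78 ± 0.20. In the replication list 23 of 39 fell and 6 rose, with a median of -0.50. Rfc5, a subunit of the clamp loader, dropped by 1.70 ± 0.14, Pola2 by 1.45 ± 0.12, and the helicase genes Mcm5 and Mcm10 by 1.35 ± 0.17 and 1.35 ± 0.15. Prim1, the primase subunit that works with Pola1, rose from 8.41 and 8.54 to 9.43 and 9.29 (0.89 ± 0.13), and Pola1 and Gins1 rose by 0.64 ± 0.15 and 0.62 ± 0.16.

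Promoters of mitosis genes are known to carry a cell cycle homology region, read by the MuvB-based DREAM complex, together with CCAAT boxes read by NF-Y, while replication genes carry E2F sites. The 250 bases before the start of transcription are printed for 3 mitosis genes that fell. They were taken only from genes whose windows hold both kinds of letters, TTTGAA and CCAAT, so nothing is read from their presence here. Among such genes the choice went by size of fall with a chromosome left out, so a gene there with a larger fall would be missing. Genes with a larger fall whose windows lack either kind of letters are not printed. The sequences come from RefSeq on build GRCm38.p6, read 5′ to 3′ on the strand of the gene. Capitals mark TTTGAA or CCAAT on either strand, so that the opposite strand shows as TTCAAA or ATTGG. Ccnb2 lies at chr9:70421555-70421804 on the minus strand, Ube2c at chr2:164769679-164769928 on the plus strand and Cdk1 at chr10:69352913-69353162 on the minus strand.
Ccnb2: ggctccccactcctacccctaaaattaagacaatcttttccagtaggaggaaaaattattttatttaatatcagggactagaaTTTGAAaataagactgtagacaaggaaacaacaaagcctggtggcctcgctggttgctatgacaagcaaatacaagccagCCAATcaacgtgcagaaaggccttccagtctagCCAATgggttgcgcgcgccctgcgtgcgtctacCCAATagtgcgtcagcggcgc
Ube2c: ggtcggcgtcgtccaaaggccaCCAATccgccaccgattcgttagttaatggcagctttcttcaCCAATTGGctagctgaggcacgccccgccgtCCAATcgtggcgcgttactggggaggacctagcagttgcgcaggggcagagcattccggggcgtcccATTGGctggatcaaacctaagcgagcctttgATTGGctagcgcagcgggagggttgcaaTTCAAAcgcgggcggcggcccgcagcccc
Cdk1: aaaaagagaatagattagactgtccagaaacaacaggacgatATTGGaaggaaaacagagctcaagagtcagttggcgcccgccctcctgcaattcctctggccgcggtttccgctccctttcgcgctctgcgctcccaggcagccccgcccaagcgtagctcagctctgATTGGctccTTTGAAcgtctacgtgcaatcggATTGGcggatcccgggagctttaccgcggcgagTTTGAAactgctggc

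Ube2c, the ubiquitin-conjugating enzyme of the anaphase-promoting complex, read 9.66 and 9.67 in knockout progenitors and 8.12 and 8.14 at TN day 2 (-1.54 ± 0.22). Cdk1, the kinase that starts mitosis, went from 10.52 and 10.62 to 9.18 and 9.51 (-1.22 ± 0.21). The TTTGAA letters began 15 and 71 bases before the start in Cdk1, 29 in Ube2c on the opposite strand and 167 in Ccnb2. CCAAT began 21, 54 and 87 bases before the start in Ccnb2, at intervals of 33 bases.

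Over all 42 promoters of the 38 mitosis genes that the table held, 15 (35.7%) had TTTGAA, 29 (69.0%) had CCAAT and 12 (28.6%) had both, beside 16.0%, 33.8% and 5.55% of all 32851 promoters of the same length. The variant TTCGAA was in 2.38% of the mitosis promoters and 1.34% of all. In replication, pan-neuronal and synaptic promoters, CCAAT was in 53.8%, 45.5% and 31.2%. TTTGAA was in 12.8%, 11.4% and 21.9% of these, and both were in 7.69%, 2.27% and 6.25%. Both kinds of letters were in 5 of 19 promoters of the mitosis genes that fell (26.3%) and in 7 of 23 promoters of those that did not (30.4%). E2F sites were searched as TTCCCGC, by TTGGCGC as well, and by TTCGCGC. Any of these letters were in 18 of 39 replication promoters (46.2%), in 14.3% of mitosis promoters and in 6.69% of all. E-box letters CAGCTG were in 22.7% of 44 pan-neuronal and 28.1% of 32 synaptic promoters, beside 13.0% of all, and CATCTG in 22.7% and 9.38%, beside 14.4%. CATATG was in none of the pan-neuronal promoters, in 3.12% of the synaptic ones and in 3.46% of all. Both strands were searched, none of these motifs contains another, and a match describes letters only.

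Regulators of the cell cycle went both ways, with 9 of 30 higher and 11 lower. Cdk5r1, which activates the neuronal kinase Cdk5, rose from 6.66 and 6.69 to 9.63 and 9.33 (2.81 ± 0.13). The inhibitor gene Cdkn1c and the stress gene Gadd45a rose by 1.42 ± 0.18 and 1.85 ± 0.17. Ccnd3, a G1 cyclin, went from 10.13 and 10.08 to 7.40 and 7.91 (-2.45 ± 0.15), and E2f1 and E2f8 fell by 1.67 ± 0.17 and 1.57 ± 0.21. Of 29 genes of the p53 pathway and apoptosis, 9 rose and 4 fell. Plk2 and Trp53inp1, both p53 targets, rose by 2.54 ± 0.19 and 1.58 ± 0.10, the death-promoting Pmaip1 by 1.28 ± 0.17 and the survival gene Bcl2l1 by 1.19 ± 0.09. Casp8, Bak1 and Bcl2 fell by 1.90 ± 0.40, 1.70 ± 0.14 and 1.03 ± 0.18.

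The retinoic acid pathway, the signal these cultures are patterned with, fell in most of its genes while 4 of its synthesis enzymes rose. Of 21 genes, 13 fell and 5 rose, with a median of -1.14, and 3 rose without TN day 2 knockout array 2. Beside the Cyp26 enzymes, Rbp4, which carries retinol, dropped from 7.76 and 7.72 to 5.04 and 5.08, and Stra6, its receptor, by 2.12 ± 0.17. Aldh1a2, which makes retinoic acid, rose from 7.83 and 7.98 to 10.76 and 10.70 (2.82 ± 0.36), and Rdh10, which acts one step before it, from 8.90 and 8.87 to 10.94 and 11.67 (2.42 ± 0.22). Aldh1a1, which makes retinoic acid as well, read 6.09 and 6.25 and then 6.45 and 7.78, a rise of 0.95 ± 0.30 (adjusted p = 0.0116) that lost its call without TN day 2 knockout array 2 or knockout progenitor array 1 (adjusted p up to 0.465). The relative Aldh1a3 rose by 0.47 ± 0.16. In wild-type cells Aldh1a2 read 7.71 and 7.57 and then 7.39 and 9.29, with arrays that overlapped, and the difference between the genotypes passed for Aldh1a2 (2.13 ± 0.51, adjusted p = 0.0288) and for Rdh10 (1.41 ± 0.31, adjusted p = 0.0157). These differences lost their calls in 7 and 6 of 16 other settings, among them without TN day 2 knockout array 2 and without wild-type TN day 2 array 1 (highest adjusted p = 0.15 and 0.148).

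In the Wnt list 13 of 36 genes fell and 6 rose, or 3 rose without knockout progenitor array 2 or without TN day 2 knockout array 2. The receptor genes Fzd8 and Fzd7 fell by 2.21 ± 0.25 and 1.92 ± 0.24, Rspo1, which amplifies the signal, by 2.41 ± 0.17, and the repressor Tcf7l1 by 1.92 ± 0.15. Wnt5a, a ligand of the non-canonical branch, rose from 7.17 and 7.09 to 9.31 and 9.83 (2.44 ± 0.48), and Dkk2, an inhibitor, from 5.87 and 5.86 to 7.05 and 8.73. Among 29 hedgehog and FGF genes 12 fell and 3 rose, with Ptch1, the hedgehog receptor and target, at 10.73 and 10.80 and then 8.86 and 8.53 (-2.07 ± 0.17) and Gli3 and Gli1, its transcription factors, lower as well (-1.95 ± 0.20 and -1.57 ± 0.26). In the list of BMP and TGFβ genes 6 of 28 fell and 4 rose. Without TN day 2 knockout array 1, 3 fell, and without TN day 2 knockout array 2 or knockout progenitor array 2, 2 rose. Bmp7 fell by 2.30 ± 0.21 and Tgfb1 by 2.12 ± 0.26, while Id4 rose by 3.62 and the receptor gene Tgfbr1 by 0.85 ± 0.11.

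In 3 lists of regulators of position and subtype the counts of changed genes lay near or below the share over all genes (44.4%), and are given as a description. The same holds for the cholinergic, BMP and TGFβ, p53, pluripotency, astrocyte, oligodendrocyte, microglia, early mesoderm and microRNA lists. It holds as well for the neuropeptide, neurotrophin, ATF4, interferon and immediate early lists. In the hindbrain and spinal cord list, 3 of 37 rose and 11 fell. Lbx1, which marks dorsal interneurons, rose from 7.46 and 7.51 to 9.33 and 9.19 (1.78 ± 0.14) and Lhx5 by 1.09 ± 0.19, while Pax7, of dorsal progenitors, fell by 2.59 ± 0.18 and Gata3 and Gata2, of ventral interneurons, by 1.64 ± 0.32 and 1.41 ± 0.22. Of 26 Hox genes, 4 rose and 6 fell, and 2 rose when either TN day 2 knockout array or knockout progenitor array 1 was left out. The genes with the largest falls were Hoxb1 (-2.62 ± 0.16), Hoxa3 (-1.71 ± 0.19) and Hoxa4 (-1.13 ± 0.19), and the largest rises were in Hoxb7 (1.28 ± 0.18) and Hoxb6 (0.95 ± 0.14). The remaining rises, in Hoxc4 and Hoxa5, lost their calls in 3 and 6 of 13 other settings. No order by Hox number is read from these genes. Of 25 cortical transcription factors, 1 rose (Cux2, 0.66 ± 0.10), or 2 without TN day 2 knockout array 1, and 7 fell, among them Foxp2 (-2.03 ± 0.23) and Mef2c (-1.49 ± 0.20).

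The progenitor cultures also gave signal for cells outside the neural lineage, and most of that signal fell. Of 19 epithelial genes 17 fell and none rose, with a median of -1.12. The keratin genes Krt18 and Krt8 went from 10.55 and 10.58 to 7.43 and 7.36, and from 10.78 and 10.70 to 8.06 and 7.44, and Cdh1, epithelial cadherin, fell by 2.18 ± 0.34. Of 22 endothelial genes 16 fell and 1 rose, with a median of -1.17. Pecam1, an adhesion molecule of vessel walls, read 7.13 and 7.04 and then 5.09 on both arrays, and fell by 2.00 ± 0.21, and Cldn5, of their tight junctions, fell by 1.66 ± 0.15. Kdr, the VEGF receptor, was the gene that rose, from 7.76 and 7.82 to 8.84 and 10.35, and lost its call without TN day 2 knockout array 2 (adjusted p = 0.131). Of 17 endoderm genes 10 fell and 1 rose, with Foxa1 at -3.27 ± 0.37, and of 15 early mesoderm genes 5 fell and 1 rose, with Foxc2 and Gata4 lower by 2.71 ± 0.33 and 2.43 ± 0.36.

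Mesenchymal genes went up. Of 23, 11 rose and 1 fell, with a median of 0.80. The fall lost its call without either knockout progenitor array or without TN day 2 knockout array 1. Tagln, of contractile cells, rose from 6.55 and 6.27 to 9.31 and 10.24 (3.36 ± 0.46), Acta2, smooth muscle actin, from 8.95 and 8.90 to 11.44 and 11.94, Col1a1 by 1.93 ± 0.44 and Fap by 2.82 ± 0.41. Lum, a matrix proteoglycan, read 3.85 and 3.91 and then 4.68 and 4.67 and did not pass. The median level of the list was 7.28 and 7.19 in knockout progenitors and 8.05 and 9.04 at TN day 2. In wild-type cells it was 7.10 and 7.02 and then 6.63 and 8.30, so the wild-type TN day 2 arrays lay on both sides of the progenitors. None of the 23 genes passed the test of a difference between the genotypes, and 7 passed, higher in the knockout, without wild-type TN day 2 array 2. The level of these genes moves with array 2 of both TN day 2 groups, and its part in other results was not tested.

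**Figure D3:**
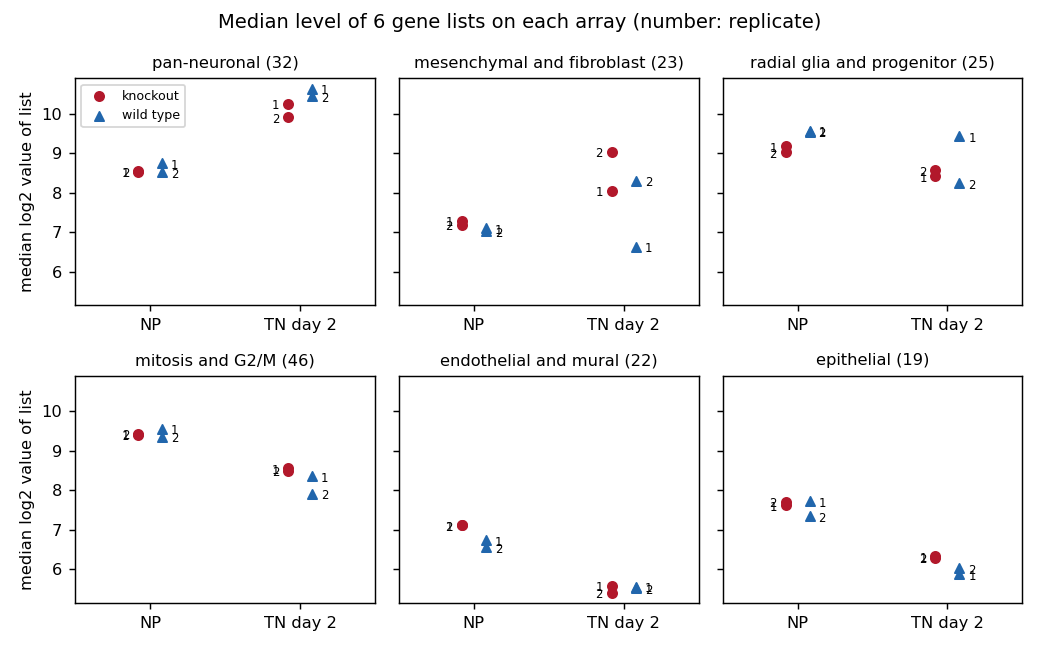
Median log2 expression (vertical axis) of 6 gene lists on each of the 8 arrays of progenitors and TN day 2 cells, wild type and knockout. Pan-neuronal genes rose from 8.54 and 8.53 to 10.25 and 9.91 in the knockout, and mesenchymal genes differed most between the 2 wild-type TN day 2 arrays (6.63 and 8.30).

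The defining markers of glia, microglia and neural crest named here did not rise. Of 18 astrocyte genes 2 rose (Mlc1, by 1.34, and Slc1a2) and 6 fell. The defining markers Gfap (4.82 and 4.94, then 4.64 and 4.72) and Aqp4 (4.36 and 4.34, then 4.16 and 4.27) did not pass, and the falls included Ndrg2 (-2.45 ± 0.14), Aldoc (-2.28 ± 0.27) and Apoe (-1.57 ± 0.11), which neural progenitors also express. Of 17 oligodendrocyte genes 1 rose (Ugt8a, by 1.16) and 4 fell, and Mog and Sox10 did not pass. Of 16 microglia genes none rose and 2 fell, or 1 when any of the 4 knockout arrays was left out, with Aif1, Cx3cr1 and Csf1r between 4.63 and 6.35 on all 4 arrays. In the neural crest list 4 of 15 rose and 4 fell. Tfap2a, an AP-2 factor also found in dorsal interneurons, rose by 1.68 ± 0.21, and Sox10 and Foxd3, which define the lineage, did not rise. The other rises were in Twist1, Tfap2b and Mia, of which Tfap2b and Mia lost their calls without TN day 2 knockout array 1. Of 29 pluripotency genes 7 fell and 1 rose. Sall4 fell by 2.24 ± 0.16, while Pou5f1, Nanog and Zfp42 read 6.19 or less in knockout progenitors and did not pass.

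Glycolysis genes had the lowest median of the 44 lists. Of 18, 12 fell and 3 rose, with a median of -1.25. Slc2a1, the glucose transporter, went from 12.59 and 12.63 to 9.68 and 10.04 (-2.74 ± 0.23). Pdk1, a pyruvate dehydrogenase kinase, changed by -2.91 ± 0.17 and Slc16a3, which exports lactate, by -3.11 ± 0.18. Ldha, which makes lactate, fell by 1.62 ± 0.21 in the knockout and 3.06 in the wild type, and that difference passed (1.44 ± 0.30, adjusted p = 0.0121). It lost its call without TN day 2 knockout array 2, wild-type TN day 2 array 1 or knockout progenitor array 2 (adjusted p up to 0.0938). The phosphofructokinase genes Pfkp and Pfkm rose by 1.17 ± 0.21 and 0.67 ± 0.13. Cholesterol and fatty acid synthesis genes rose in 11 of 23 cases and fell in 3, or in 1 without TN day 2 knockout array 1. Msmo1, a sterol demethylase, went from 10.54 and 10.45 to 12.13 and 12.21 (1.68 ± 0.12), Cyp51 rose by 1.39 ± 0.16 and Hmgcs1, at the entry of the pathway, by 1.06 ± 0.16, while Fasn, which makes fatty acids, fell by 0.62 ± 0.12.

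Of 40 microRNA genes measured, 12 rose and 2 fell. Most were dim, with a median level between 4.68 and 5.00 on the knockout arrays. The filter on dim genes left 7 of the 40, of which 2 rose and 2 fell, and among the genes shown here it kept Mir20a, Mir10b and Mir219a-2. The probe sets read the region of the gene and not the mature RNA. Mature sequences from RefSeq are printed for the 6 named genes, 5′ to 3′, with the seed (bases 2 to 8) in capitals, since the seed decides which messages a microRNA can pair with. They are shown because one pair shares a seed and rose together, and another pair shares a seed and moved in opposite directions. Of the 40 genes, 37 matched a sequence.
mmu-miR-20a-5p: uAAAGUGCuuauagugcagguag
mmu-miR-17-5p: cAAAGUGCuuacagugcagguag
mmu-miR-10a-5p: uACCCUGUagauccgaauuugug
mmu-miR-10b-5p: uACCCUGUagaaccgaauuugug
mmu-miR-125b-5p: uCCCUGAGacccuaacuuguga
mmu-miR-219a-5p: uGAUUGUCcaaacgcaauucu

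Mir20a, at chr14:115044183-115044205 on GRCm38.p6 for the mature arm, went from 4.98 and 4.88 to 6.88 and 7.49 (2.25 ± 0.27), and Mir17, in the same cluster at chr14:115043684-115043706, from 5.01 and 4.71 to 6.12 and 6.46 (1.43 ± 0.21). These microRNAs share the seed AAAGUGC and come from a host transcript known for its part in proliferating cells. The other probe sets of that cluster did not pass: the host gene Mir17hg changed by 0.28, Mir18 by 0.03 and Mir19a by 0.67.

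Mir10a and Mir10b carry the seed ACCCUGU and lie inside Hox clusters, near Hoxb4 and Hoxd4. Mir10a (chr11:96317186-96317208) rose from 4.81 and 4.80 to 6.60 and 6.24 (1.61 ± 0.28), while Mir10b (chr2:74726074-74726096) fell from 6.98 and 7.18 to 6.06 and 5.55 (-1.28 ± 0.22). Their Hox neighbours read -0.19 ± 0.18 (Hoxb4, adjusted p = 0.447) and -0.93 ± 0.19 (Hoxd4). Mir219a-2, whose product is known from the oligodendrocyte lineage, dropped from 9.59 and 9.74 to 6.55 and 6.25 (-3.27 ± 0.24, adjusted p = 2.46e-10). Mir125b-1, of a family abundant in neurons, rose by 1.14 ± 0.22. Of the 40 genes, none passed the test of a difference between the genotypes.

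The same step in wild-type cells gave the reference for what differed without Top2b. In the wild type 9609 genes changed (48.2%), with 4299 higher (21.6%) and 5310 lower (26.6%). The changes of the genotypes, which share no array, correlated across the 19938 genes with r = 0.894, a description only since genes are not independent replicates. Of the 7333 genes called in both, 7297 moved the same way and 36 in opposite directions. The test of the difference between the changes called 541 genes (2.71%), with the knockout change above the wild-type change for 275 (1.38%) and below it for 266 (1.33%). This count varied with single arrays, from 112 without TN day 2 knockout array 2 to 850 without TN day 2 knockout array 1. It was 167 without wild-type TN day 2 array 1 and 818 without array 2, 176 and 172 without knockout progenitor array 1 or 2, and 344 and 319 without wild-type progenitor array 1 or 2.

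**Figure D4:**
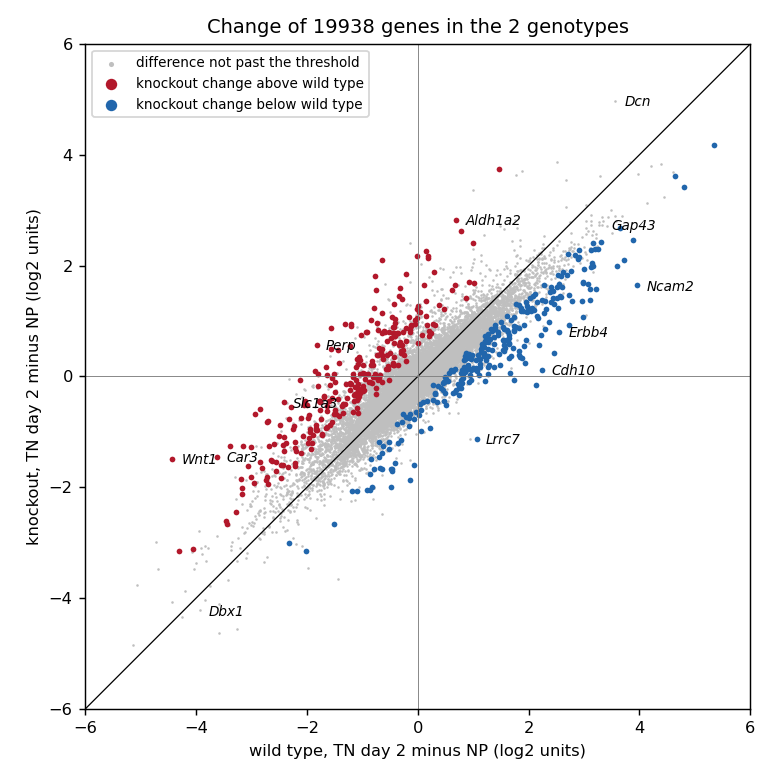
Change from NP to TN day 2 in knockout cells (vertical axis, log2) against wild-type cells (horizontal axis, log2) for 19938 genes. Red points are the 275 genes with the knockout change above and blue points the 266 with it below the wild-type change, and r across genes is 0.894.

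Most genes with a lower knockout change were genes that rose in both genotypes and rose less in the knockout. Of the 266, 150 rose in both, 64 rose in the wild type and did not pass in the knockout, 27 fell in both, 18 fell in the knockout and did not pass in the wild type, and 7 fell in the knockout and rose in the wild type. Of the 275 with a higher knockout change, 95 fell in both, 89 fell in the wild type and did not pass in the knockout, 53 rose in the knockout and did not pass in the wild type, 26 rose in the knockout and fell in the wild type, and 12 rose in both. At TN day 2 itself, 207 of the 266 and 244 of the 275 also differed between the genotypes, beside 11.5% of all genes, while 35 and 16 differed among progenitors, beside 0.627%. These tests use the same arrays as the test that chose the genes, and nothing is read from the counts.

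Of the 84 named genes with a called difference, 20 kept it in every other setting that tested them. There were 16 such settings, or 15 for Tpbpa, which the filter on dim genes left out. Of these 20 genes, 16 had the lower change in the knockout. Ncam2, an adhesion molecule of axons, rose from 4.73 and 4.93 to 6.66 and 6.29 in the knockout and from 4.82 and 4.51 to 8.50 and 8.76 in the wild type, a difference of -2.32 ± 0.22 (adjusted p = 4.54e-06). The progenitor arrays overlapped and the TN day 2 arrays did not. Erbb4, a neuregulin receptor, rose by 0.81 in the knockout, to 8.27 and 8.44, and by 2.55 in the wild type, to 10.02 and 10.47 (difference -1.74 ± 0.25). Nrg3, a neuregulin, ended at 5.90 and 5.63 in the knockout and at 7.93 and 8.02 in the wild type (-2.03 ± 0.21). Nav3, a protein of growing microtubule ends, differed by -1.92 ± 0.29, Khdrbs2, an RNA-binding splicing factor, by -1.80 ± 0.20 and Mdga2, an adhesion molecule that binds neuroligins, by -1.72 ± 0.22. In all 5 genes after Ncam2, as in Ncam2, both knockout TN day 2 arrays lay below both wild-type ones.

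Among the other 10, 5 genes already differed between the genotypes among progenitors, as did 0.627% of all genes. The test that chose the 10 uses the same progenitor arrays, so nothing is read from this count. Cdh10, a cadherin, read 7.42 and 7.44 in knockout progenitors against 6.84 and 6.57 in wild-type ones (adjusted p = 0.0126), and 7.54 and 7.55 against 8.93 and 8.96 at TN day 2, so that the change differed by -2.12 ± 0.20. Kcnd2, a potassium channel of dendrites, started at 7.31 and 7.32 against 5.98 and 6.27 and ended at 7.21 and 7.29 against 7.59 and 8.14 (-1.80 ± 0.23). Sv2a, a vesicle glycoprotein, started at 9.02 and 9.05 against 8.03 and 7.93 and ended at 9.45 and 9.30 against 9.81 and 9.91 (-1.54 ± 0.14). Lrrc7, a scaffold of the postsynaptic density, fell from 7.41 and 7.42 to 6.42 and 6.16 in the knockout and rose from 6.46 and 6.15 to 7.45 and 7.28 in the wild type (-2.18 ± 0.34, adjusted p = 0.00146). For these 4 genes the knockout was the higher genotype among progenitors and the lower one at TN day 2, with no overlap at either stage. Tpbpa, a gene known from the placenta, read 5.43 and 5.81 in knockout progenitors against 4.35 and 4.29 in wild-type ones (adjusted p = 0.00143). Its genotypes did not differ by the test at TN day 2 (adjusted p = 0.165), so that most of its difference in change (-1.74 ± 0.28) lay among progenitors. Ctnna2 (-1.62 ± 0.22), Ebf1 (-1.45 ± 0.24), Ephb1 (-1.44 ± 0.23), Ntrk3 (-1.23 ± 0.20) and Ptpro (-1.10 ± 0.15) made up the rest. Ebf1 is a factor of early neuronal differentiation, Ephb1 an ephrin receptor and Ntrk3 the receptor of neurotrophin 3.

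The other 4 of the 20 had the higher change in the knockout, and all 4 fell in the wild type. Wnt1, the ligand of the dorsal midline, went from 9.41 and 9.52 to 7.29 and 8.67 in the knockout and from 9.59 and 9.55 to 4.97 and 5.31 in the wild type (difference 2.95 ± 0.38, adjusted p = 0.000261). Slc1a3, the glial glutamate transporter, went from 9.87 and 9.74 to 7.57 and 7.22 in the wild type and from 8.70 and 8.77 to 7.96 and 8.57 in the knockout (1.94 ± 0.32). Its knockout progenitors were already lower, by -1.07 ± 0.23 (adjusted p = 0.0273), so that much of this difference lay among progenitors. Car3, a carbonic anhydrase, differed by 2.17 ± 0.32, with -1.45 in the knockout and -3.62 in the wild type. Perp, a membrane protein that p53 induces, ended at 7.28 and 7.95 in the knockout and at 5.12 and 6.12 in the wild type (2.40 ± 0.36). At TN day 2 the knockout arrays of these 4 genes lay above the wild-type arrays.

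The gene lists were chosen with earlier results of these data known, so the counts in them are a description only. A lower knockout change was called for 18 of 62 adhesion genes, beside 1.33% of all genes. That count was 8 without TN day 2 knockout array 2, 9 and 11 without knockout progenitor array 1 or 2, and 11 without wild-type progenitor array 2 or wild-type TN day 2 array 1. In axon guidance it was called for 7 of 43 (4 to 8 when single arrays were left out), in potassium channels for 4 of 30 (1 to 5), in synaptic genes for 4 of 29 (1 to 8) and in pan-neuronal genes for 3 of 32 (0 to 6). In each of these 4 lists the count fell without knockout progenitor array 1, wild-type progenitor array 2, TN day 2 knockout array 2 or wild-type TN day 2 array 1. No gene of the adhesion, guidance, channel or pan-neuronal lists had a higher knockout change, except 2 guidance genes without TN day 2 knockout array 1. The synaptic list held 1 gene with a higher knockout change, Doc2b (0.72). In the GABA and glycine list 1 gene had a higher and 1 a lower knockout change. Mitosis genes fell in 40 of 46 cases in the wild type, with a median of -1.15, and in 22 in the knockout, with a median of -0.52, but the difference passed for 1 of them, Anln (1.31 ± 0.35, adjusted p = 0.0461), and for 2 of 39 replication genes, Cdt1 (0.62 ± 0.16) and Mcm6 (0.67 ± 0.18). Leaving out any 1 of the 8 arrays ended the calls of Cdt1 and Mcm6, and Anln lost its call without any array but TN day 2 knockout array 1. Median levels of the mitosis list at TN day 2 were 8.56 and 8.49 in the knockout and 8.36 and 7.91 in the wild type. Of 33 genes called in both genotypes in opposite directions with a called difference, 26 rose in the knockout and 7 fell. Lrrc7 was among the 7.

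The longest genes had the lower knockout change more often than other genes. Spans were taken from RefSeq for 19856 genes. Among the 530 genes of at least 300 kb the median difference of the changes was -0.18. The median change was 0.14 in the knockout and 0.27 in the wild type. Taken on the group medians of level in this class, the difference had a standard error of 0.07, from the spread between arrays of a group. In the 4 shorter classes (under 10, 10 to 30, 30 to 100 and 100 to 300 kb) the median difference lay between -0.03 and -0.00. A lower knockout change was called for 70 of the 530 (13.2%) and a higher one for 14 (2.64%). The shares with a lower knockout change in the shorter classes were 0.714%, 1.10%, 0.907% and 2.21%. The median of the longest class depended on the class and the filter: it was -0.04 in the longest of 5 classes of equal size and -0.30 when dim genes were left out.

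Among genes that rose by at least 1 on the mean of both genotypes, the median difference was -0.17, -0.20, -0.21, -0.37 and -0.81 from the shortest to the longest class, over 280, 381, 409, 198 and 126 genes. In the 126 longest the median change was 1.32 in the knockout and 2.01 in the wild type. The difference was called lower for 48 of them (38.1%) and higher for none. In the shorter classes of rising genes the shares called lower were 6.07%, 4.99%, 5.13% and 10.6%, from the shortest up. Leaving out single arrays gave medians from -0.65 (without TN day 2 knockout array 2) to -0.89 in this class. In the longest of 5 classes of equal size the median of the rising genes was -0.40. The 266 genes with a lower knockout change had a median span of 49.6 kb and the 274 with a higher change and a known span 36.7 kb, beside 17.7 kb for all genes, so both sets were longer than the median gene. Of a list of 69 very long neuronal genes, 31 rose and 11 fell in the knockout and 41 rose and 3 fell in the wild type. The members of this list were chosen with earlier results of these data known, so its counts are a description only. In 22 of the 69 the knockout change was called lower, beside 1.33% of all genes, and in none higher. That count was 9 without knockout progenitor array 1, TN day 2 knockout array 2 or wild-type TN day 2 array 1, 10 without knockout progenitor array 2, and 13 and 11 without wild-type progenitor array 1 or 2. Cntnap2, one of the longest genes in the genome and a neurexin relative, rose alike, from 5.90 and 6.07 to 7.65 and 7.57 in the knockout (1.63 ± 0.17) and by 1.73 in the wild type. The difference of -0.10 had a standard error of 0.23.

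**Figure D5:**
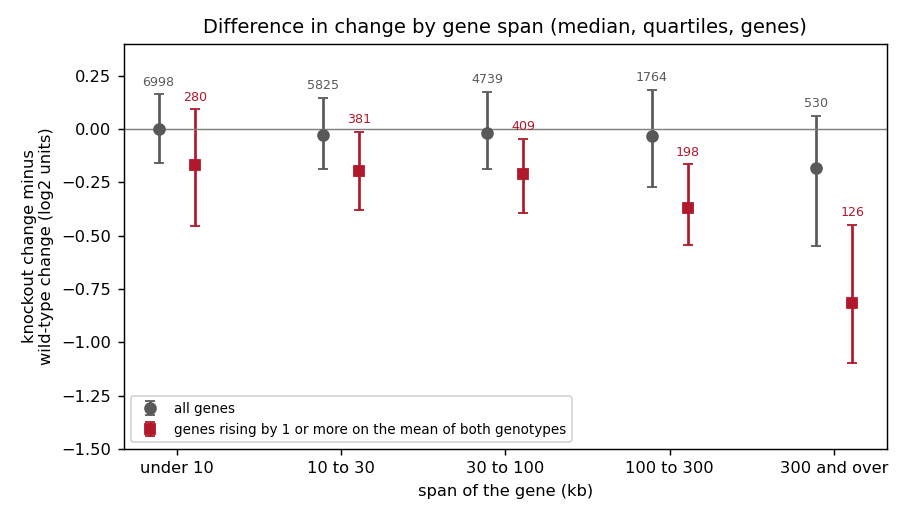
Median (points) and quartiles (bars) of the knockout change minus the wild-type change (vertical axis, log2) by class of gene span (horizontal axis, kb), for all genes and for genes that rose by at least 1 on the mean of both genotypes. The median of the rising genes moves from -0.17 under 10 kb to -0.81 at 300 kb or more.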

How the data were processed

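Total RNA was labelled and hybridised to Affymetrix whole-transcript arrays. The authors deposited log2 values for 35556 probe sets on 28 arrays. The submitters' processing notes name oligo 1.14.0. Log base, summarization and background correction were not given in the sources used here, and base 2 was read from the range of the values.

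Platform annotation gave 1 gene symbol to 21789 probe sets, several to 1621 and no entry to 12146. The probe set with the highest mean was kept for each of 19938 genes, and 999 genes had more than 1. Samples were grouped by title into 12 groups. limma 3.58.1 in R 4.3.3 fitted group means over all 28 arrays (lmFit and eBayes, 16 residual degrees of freedom) and tested knockout TN day 2 minus NP, the same in wild type, and the difference, two-sided with Benjamini-Hochberg adjustment over all genes and a threshold of 0.05. The fit and its calls were tested on simulated data. The number of arrays limits the precision.

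Counts are given for 44 gene lists (1091 of 1177 symbols measured), for which no set test was run. The members and the lists were chosen with earlier results of these data known. Named genes were the 15 largest rises and falls, the 12 largest differences of each sign, up to 4 called members of a list in each direction and up to 3 with a called difference, Top2b, Top2a, Top1 and defining cell type markers. Riken clones and predicted genes were counted but not named. Ube2c and Cdk1 were named for their promoters, and Hoxb4, Mir17hg, Mir18 and Mir19a as neighbours of named genes, after their values were seen. Spans and sequences came from RefSeq on GRCm38.p6, used for names, spans and sequences only.

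Alternatives were the fit on the compared arrays only, median centring, quantile normalization, array weights, a filter on dim genes, averaged probe sets, a trended robust variance, a replicate block, each array left out, and quintiles of span.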

Additional observations from a re-analysis of the deposited data

Results flagged for a closer look

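For 84 named genes the test of the difference itself gave a knockout change apart from the wild-type change over the same step. Values are the knockout change minus the wild-type change on the log2 scale, and no explanation is weighed.

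Among adhesion, guidance and receptor genes the difference was -2.32 for Ncam2, -2.29 for Edil3, -2.12 for Cdh10, -1.72 for Mdga2, -1.62 for Ctnna2, -1.59 for Epha5, -1.44 for Ephb1, -1.37 for Epha6 and -1.10 for Ptpro. Among growth factor and neurotrophin genes it was -2.03 for Nrg3, -1.74 for Erbb4, -1.23 for Ntrk3, -1.21 for Grp, -1.10 for Sorcs3 and -0.81 for Gfra1. Among synaptic and receptor genes it was -2.18 for Lrrc7, -1.54 for Sv2a, -1.38 for Glra2, -1.13 for Dlg2, -1.05 for Grm7, -1.03 for Rab3c, -0.83 for Chrnb2, -0.81 for Syt1, -0.75 for Syt4 and -0.75 for Scg3. Among channel genes it was -1.80 for Kcnd2, -1.13 for Kcnh7, -0.93 for Dpp10, -0.85 for Cacna2d3 and -0.82 for Kcnh8.

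Among cytoskeletal genes and genes that act on RNA it was -1.92 for Nav3, -1.80 for Khdrbs2, -1.69 for Adarb2, -1.15 for Rbfox1 and -0.90 for Celf4. Among transcription factors it was -1.45 for Ebf1, -1.18 for Sox18, -1.17 for Mab21l2, -1.17 for Myt1l, -1.15 for Lhx2, -0.94 for St18 and -0.80 for Bcl11b. The other genes with a lower knockout change were Tpbpa (-1.74), Sfrp2 (-1.18), Cldn5 (-1.03), Nnat (-0.91), Ptch1 (-0.88), Wnt4 (-0.80) and Dusp1 (-0.54).

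Above the wild-type change lay Wnt1 by 2.95, Prss35 by 2.76, Kdr by 2.58, Ltbp1 by 2.43, Perp by 2.40, Ephx1 by 2.31, Mybpc1 by 2.29, Gask1b by 2.27, Aldh1a1 by 2.26, Podxl by 2.26, Nexn by 2.19 and Car3 by 2.17. For 9 of these 12 (Prss35, Kdr, Ltbp1, Ephx1, Gask1b, Aldh1a1, Podxl, Nexn and Mybpc1) the call ended in at least 1 other setting. Genes of retinoic acid, Wnt and Notch signalling followed with Aldh1a2 (2.13), Lef1 (1.72), Hes1 (1.63), Rdh10 (1.41) and Stra6 (1.04), and the FGF ligand gene Fgf18 differed by 0.67. Genes of the cell cycle and the p53 pathway were Tnfrsf10b (1.94), Anln (1.31), Cdk6 (1.31), Ccnd3 (0.82), Zmat3 (0.72), Mcm6 (0.67) and Cdt1 (0.62). The rest were Slc1a3 (1.94), Ldha (1.44), Gabra4 (1.22), Nr4a3 (1.06), Ddc (0.97), Slc16a3 (0.95), Utf1 (0.89), Th (0.83), Doc2b (0.72) and Ddx58 (0.68).

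Kdr, Prss35, Ltbp1, Podxl and Lef1 were also among the genes whose 2 knockout TN day 2 arrays differed widely, with 8.84 and 10.35 for Kdr, 7.08 and 8.71 for Prss35, 10.05 and 10.83 for Ltbp1, 9.89 and 10.88 for Podxl and 8.16 and 9.01 for Lef1. Array 2 was the higher in each, as in the mesenchymal genes. Each difference lost its call without knockout TN day 2 array 2. Each lost it as well without either knockout progenitor array, wild-type progenitor array 1 or wild-type TN day 2 array 1. What sets array 2 apart was not tested.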

How the results depend on the processing

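The number of genes changed in the knockout lay between 7489 and 10045 over all alternatives, and in the wild type between 8138 and 9697. The number with a called difference between the genotypes was less stable. It was 541 in the report, 188 with only the 8 arrays compared, and between 112 and 850 when single arrays were left out. The median difference of the longest genes (-0.18) was -0.0449 in quintiles of span and -0.30 without dim genes, and lay between -0.16 and -0.23 when single arrays were left out. Of 325 named genes called in the knockout, 247 kept the call in all 13 alternatives, 23 in the 12 that tested them, and 55 lost it in at least 1. With averaged probe sets, the change of Unc13c turned to 0.20 and that of Macrod2 to 0.19. The cause was not tested.

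The numbers of the arrays do not show that they pair samples. Deviations of same-numbered arrays correlated with r = 0.0038 in the knockout and 0.185 in the wild type, over 2 pairs each. A replicate block gave 8878 called genes in the knockout, 9697 in the wild type and 619 for the difference. Leaving out an array left a group with 1 array, which was assumed to vary like the other groups.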

Other observations

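Imprinted genes moved in both directions in the knockout cells, with 5 of 15 higher and 3 lower. Rian, a noncoding RNA of the Dlk1-Dio3 region, rose from 6.08 and 6.12 to 8.30 and 8.48 (2.29 ± 0.27), and Meg3, of the same region, from 10.35 and 10.31 to 11.27 and 11.10 (0.86 ± 0.13). Dlk1 itself, a paternally expressed inhibitor of differentiation, fell from 11.51 and 11.50 to 8.88 and 9.74 (-2.20 ± 0.38), and Plagl1 and Peg10 fell by 1.58 ± 0.40 and 0.78 ± 0.16. Genes of 1 imprinted region thus changed in opposite directions over the step, as they did in the wild type (Rian 2.10, Meg3 0.98, Dlk1 -2.93).

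Of 23 neuropeptide genes 6 rose and 4 fell. The filter on dim genes left 8, of which 4 rose and 1 fell. Penk, which encodes enkephalins, rose from 6.92 and 7.03 to 8.56 and 9.23 (1.92 ± 0.38), and Tac2, a tachykinin, fell from 6.99 and 6.68 to 4.64 and 4.58 (-2.23 ± 0.22). Of 17 neurotrophin and receptor genes 3 rose and 2 fell. Only 1 rose without knockout progenitor array 2 or without either TN day 2 knockout array. Among the falls was Cntfr, a cytokine receptor subunit, from 11.70 and 11.66 to 9.84 and 9.93 (-1.80 ± 0.11). In the list of ATF4 and endoplasmic reticulum stress 5 of 25 rose and 6 fell, or 3 rose when either knockout progenitor array was left out. Hspa5, a chaperone, rose by 0.99 ± 0.09 and Aldh1l2, a folate enzyme of mitochondria, by 1.56 ± 0.17, and Ddit4, which restrains mTOR, fell by 2.13 ± 0.20. No interferon-response gene rose and 6 of 17 fell, with Usp18 lower by 1.44 ± 0.33. The filter on dim genes left 4 of the 17, of which 1 fell. Of 22 immediate early genes 5 rose and 5 fell, with 1 rise without TN day 2 knockout array 2 and 3 without knockout progenitor array 1. Without 1 of the 4 knockout arrays the falls numbered 1 to 3, and 1 without knockout progenitor array 1. Nr4a3 rose by 1.01 ± 0.18 and Junb fell by 0.58 ± 0.12.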
